A study of Mus musculus with 5 samples.

Results

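Monocytes, the circulating precursors of many tissue macrophages, were 160 of the 60043 kidney barcodes that passed the quality limits (0.266%). Members were chosen by a rule on unique molecular identifiers (UMIs), each of which stands for 1 captured transcript. A member had at least 5 UMIs of Lyz2, the lysozyme gene of myeloid cells. It also had at least 2 UMIs summed over Chil3, Vcan, F13a1, Hp and Ace, and at least 1 of Csf1r or Plac8. Cells with more than 3 UMIs of the complement C1q genes C1qa, C1qb and C1qc, as in tissue macrophages, were left out. So were cells with more than 1 UMI of the neutrophil genes Retnlg and Cxcr2, of the T-cell receptor complex genes Cd3e, Cd3d and Cd3g, or of Ctsk, an osteoclast protease. The rule thus fixed the marker levels themselves, and these are given as a description.

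Single-cell RNA sequencing followed the kidney through an acute phase (AKI, for acute kidney injury) and a later remodeling phase (CKD, for chronic kidney disease) after aristolochic acid I (AAI), a plant nephrotoxin. All mice were wild-type C57BL/6 males, 8 to 10 weeks old. The 2 AKI libraries were made at week 2, at the end of 2 weeks of intraperitoneal AAI at 3 mg/kg every 3 days. The 2 CKD libraries came from mice on the same course that then went without AAI until week 4, and the vehicle-treated control library was made at week 0. Whole kidneys were digested with collagenase IV and DNase I at 37 °C without a sort, so monocytes of the blood left in vessels and monocytes of the tissue cannot be told apart. The study's methods count 1 control, 2 AKI and 2 CKD samples, and the labels do not say how many mice a library holds, so a p-value below measures the spread between libraries only. The control group has 1 library and entered no test.

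Monocytes are made in the bone marrow and reach tissue through the blood. In mice, classical monocytes carry Ly6C on their surface and use the chemokine receptor CCR2 to leave the marrow and enter injured tissue, where they can mature into macrophages or dendritic cells. Non-classical monocytes descend from them under the transcription factor NR4A1 and patrol the vessel wall. In the injured kidney, recruited monocytes are known as a source of inflammatory macrophages.

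The members numbered 13 in the control library, 19 and 25 in the AKI libraries and 50 and 53 in the CKD libraries. Their median depth lay between 5509 and 8020 UMIs and their median number of detected genes between 1699 and 2064. Summed over the members, a library held 96871 (control), 236311 and 275916 (AKI) or 320771 and 450076 (CKD) UMIs, and all gene values below rest on these sums. Levels are given as UMIs per 10000 UMIs of the cells summed. No barcode was a member in more than 1 library, while 2 members' barcodes were also kept in another library.

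The members carried the rule's genes in unequal shares, which describes the choice and does not check the label. Hp, which encodes the haemoglobin-binding protein haptoglobin, gave a UMI in 112 of the 160 members. Chil3, a secreted chitinase-like protein of marrow-derived myeloid cells, gave one in 103, and the coagulation factor gene F13a1 in 82. Ace, the angiotensin-converting enzyme that marks non-classical monocytes, was seen in 46 and the proteoglycan gene Vcan in 38. Plac8 was seen in 150, the growth factor receptor gene Csf1r in 131, while Ly6c2, a monocyte gene that the rule did not use, gave a UMI in 87. The marker sum was 5 or more in 110 members and exactly 2 in 15, and 8 members entered on Hp alone and 2 on Ace alone.

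The edge of the rule was thinly filled on some sides. The median member had 96.5 Lyz2 UMIs, the highest count was 415, and 6 members had 5 to 9. Just outside, 53 cells met every other condition with a marker sum of 1, and 370 with a sum of 0. Another 3 cells had 4 Lyz2 UMIs and 6 cells had 4 to 7 C1q UMIs, while 161 cells passed all but the C1q limit with 8 or more. A C1q UMI was present in 40 members, and 109 members had no UMI of any excluded gene.

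The genes of the rule are placed as follows in GRCm39. Lyz2 (ENSMUSG00000069516) lies on chromosome 10 from 117111557 to 117118346 and Chil3 (ENSMUSG00000040809) on chromosome 3 from 106054870 to 106074880. Ace (ENSMUSG00000020681) lies on chromosome 11 from 105858469 to 105880790. Outside the rule, Ly6c2 (ENSMUSG00000022584) lies on chromosome 15 from 74980003 to 74988467.

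A few members carried much RNA of tubule cells or were far deeper than the rest. In 10 members, tubule marker genes made up more than 1% of the UMIs or the cell had more than 3 times the median UMIs of its library's members. These are called mixed cells below, and the limits were set after seeing the data. Some passed the depth limit only, so the name does not mean tubule RNA in each. One of these, an AKI 1 cell of 39423 UMIs, had 3.55 tubule marker UMIs per 10000, below the median member of AKI 1 (9.34). There was 1 in the control, 3 and 2 in the AKI libraries and 3 and 1 in the CKD libraries. In AKI 1 they held 49.4% of all member UMIs and in AKI 2 38.2%, against 16.1% in CKD 1, 7.19% in CKD 2 and 29.9% in the control. The deepest, in AKI 2, had 72542 UMIs and 8379 genes but only 5 Lyz2 UMIs, and the next, in AKI 1, had 59034 UMIs and 19 of Lyz2. The deposited counts were not cleared of doublets, so 2 cells under 1 barcode and 1 cell with much free RNA cannot be told apart. Every level below leaves the 10 mixed cells out unless stated, which leaves 12, 16, 23, 47 and 52 members.

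**Figure D1:**
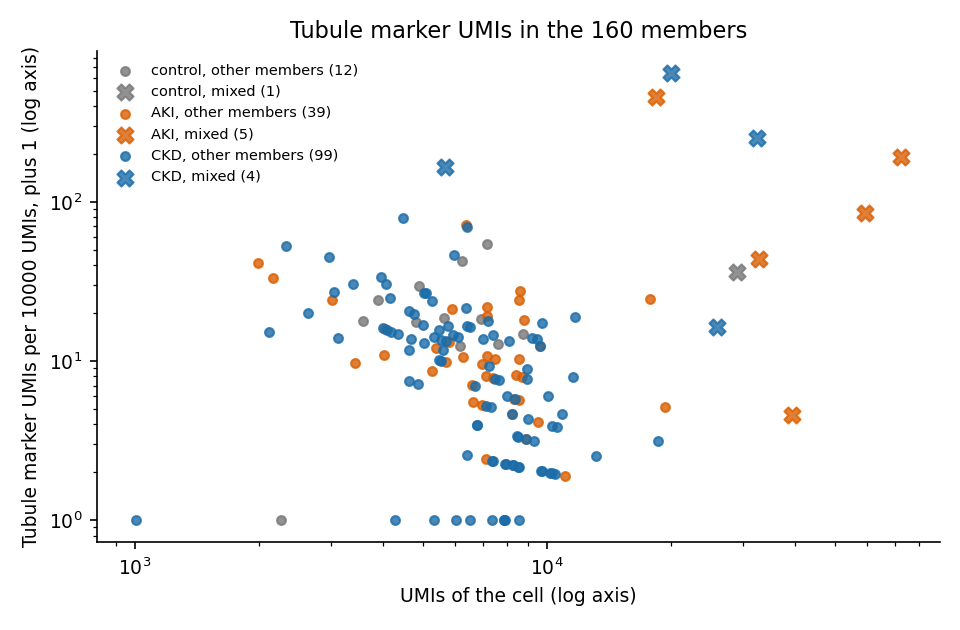
Each point is 1 of the 160 members, with its UMIs on the x axis and its tubule marker UMIs per 10000 UMIs, plus 1, on the y axis, both on log scales. Crosses mark the 10 mixed cells: 9 of them lie at or above 18383 UMIs, and 1 CKD cell of 5667 UMIs stands above the unmixed members in tubule markers.

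Markers of most other cell types were low in the remaining members, while those of T and NK cells were higher in CKD 1. Of 11 neutrophil markers, Retnlg, Ngp, Camp, Ltf and Ly6g were at 0 in every library, and the list summed to 0.78 to 5.57 per 10000. The highest of these sums, in AKI 2, came from S100a8 and S100a9 (2.17 and 2.40), all 41 S100a9 UMIs lying in 1 cell. All 5 erythroid genes were at 0. The 10 T and NK markers summed to 0.147, 0.586, 2.87, 7.95 and 2.94 across control, AKI 1, AKI 2, CKD 1 and CKD 2, both CKD values lying above both AKI values, against 64.6 to 118 in Cd3-positive lymphocytes. Most of this was Ccl5, and its part in the results below was not tested. Endothelial and stromal markers summed to 5.01, 0.0837, 3.46, 3.90 and 0.0479 in the same order. In Cd3-positive lymphocytes they summed to 2.82, 2.18, 1.44, 1.48 and 1.54, so the members of the control, AKI 2 and CKD 1 were above that level. The resident macrophage list summed to 0.79 to 2.70 in the members against 101 to 139 in C1q macrophages, with Cd163, Folr2 and Timd4 at 0. Dendritic cell markers summed to 0 to 1.87, with Xcr1, Zbtb46, Siglech and Ffar2 at 0. In CKD 2, 56 UMIs of Cd209a, a gene of monocyte-derived dendritic cells, came from 4 cells. The tubule list summed to 22.2, 15.2, 9.61, 18.4 and 3.26 across control, AKI 1, AKI 2, CKD 1 and CKD 2, below its level in Cd3-positive lymphocytes of the same libraries (45.9, 25.4, 20.3, 48.0 and 7.79). These lymphocytes, with at least 2 Cd3 UMIs and no C1q UMI, are used below as the level that free RNA can give for genes they do not express.

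**Figure D2:**
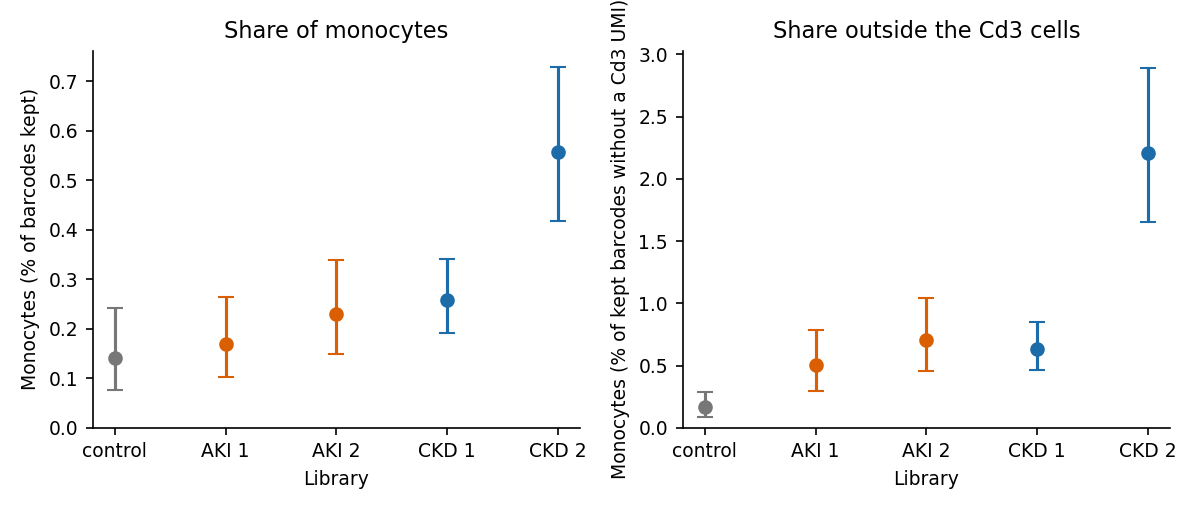
Monocytes as a percentage of all kept barcodes (left) and of kept barcodes without a Cd3 UMI (right) in each of the 5 libraries, with exact 95% binomial intervals that cover counting error only. CKD 2 lies above the other libraries in both panels.

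Monocytes made up a larger share of the CKD libraries than of the AKI libraries, but the libraries of the CKD group differed widely. The share was 0.142% (Clopper-Pearson 95% interval 0.0755 to 0.242) in the control, 0.170% (0.102 to 0.265) in AKI 1 and 0.230% (0.149 to 0.340) in AKI 2. It was 0.259% (0.192 to 0.341) in CKD 1 and 0.558% (0.418 to 0.729) in CKD 2. Both CKD shares were above both AKI shares, yet the interval of CKD 1 overlapped that of AKI 2. The difference of the means was 0.208 percentage points, against a pooled SD between libraries of 0.152. It was 0.0589 without CKD 2 and 0.358 without CKD 1. No test was run, since a two-sided exact permutation test of 2 libraries against 2 cannot go below p = 0.33.

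The order of the libraries moved with the denominator. Cd3-positive lymphocytes numbered 1169 in the control and 3721 to 6182 in the AAI libraries. Among kept barcodes without a Cd3 UMI, the share was 0.170% in the control, 0.501% and 0.709% in AKI, and 0.636% and 2.21% in CKD, so that CKD 1 fell between the AKI libraries. Per 100 C1q macrophages there were 1.93 monocytes in the control, 2.65 and 2.34 in AKI, and 5.68 and 15.5 in CKD. The macrophages themselves numbered 674, 716, 1069, 880 and 341. After each cell was thinned to 2000 UMIs, which left out shallower cells, the rule found 9, 12, 18, 28 and 37 members. The thinned shares were 0.129%, 0.131%, 0.197%, 0.190% and 0.432%, and only CKD 2 then lay above both AKI libraries.

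Lyz2 stood at 193 per 10000 in the control, 191 and 173 in AKI and 146 and 160 in CKD, against 28.3 to 130 in C1q macrophages and 0.422 to 1.41 in Cd3 lymphocytes. Plac8, a small cysteine-rich protein, was at 21.9, 32.9, 32.8, 25.0 and 28.4. Hp was at 5.6, 9.21, 6.27, 3.42 and 4.33, with both CKD libraries below both AKI libraries. Chil3 was at 10.7, 6.19, 4.98, 7.21 and 18.7. Its highest level, in CKD 2, was spread over 41 of 52 cells, and the cell with the most Chil3 UMIs held 7.92% of them. F13a1 (4.56, 3.43, 1.99, 1.52 and 2.11) and Vcan (1.77, 1.76, 0.117, 0.409 and 1.15) overlapped between AKI and CKD.

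To find genes that differed between the injury phases, the UMIs of all 160 members were summed per library and compared between 2 CKD and 2 AKI libraries with edgeR's quasi-likelihood test. Of 3852 genes tested, 121 (3.14%) passed an adjusted p of 0.05, 14 higher (0.363%) and 107 lower (2.78%) in CKD. Each of the 107 had over 50% of its AKI UMIs in the 5 mixed AKI cells, with a median of 93.3%, and 72 had over 90%. Over all genes, those cells held 49.4% of the member UMIs of AKI 1 and 38.2% of those of AKI 2. Among the 14 higher genes the share of AKI UMIs in the mixed cells had a median of 10.5%. Without the mixed cells, none of 2694 genes passed (0%). Of these, 140 had an unadjusted p under 0.05 (76 or 2.82% higher and 64 or 2.38% lower), DESeq2 called 1, and the smallest adjusted p was 0.0704. The count of 121 also moved when a library was left out: 287 without AKI 1, 526 without AKI 2, 331 without CKD 1 and 88 without CKD 2. With the mixed cells out, these counts were 25, 31, 8 and 4.

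The largest falls with all members, under the naming rule, included Wt1, Cp, Sfn, Bcam, Plat, Ncam1, Akap12, Col18a1, Sox9, Krt18 and Ankrd1. Krt18 is a keratin of simple epithelia, Sox9 a transcription factor that injured tubule cells switch on, and Wt1 a transcription factor of podocytes. Krt18 was at 2.45 and 2.50 per 10000 in AKI 1 and AKI 2 and at 0.0312 and 0 in CKD (log2 fold change -7.09 ± 0.57 SE, edgeR adjusted p = 0.00722). None of these had enough UMIs to be tested once the mixed cells were left out. Akap12, a scaffold protein, was at 2.75 and 3.41 in AKI and at 0 in both CKD libraries.

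**Figure D3:**
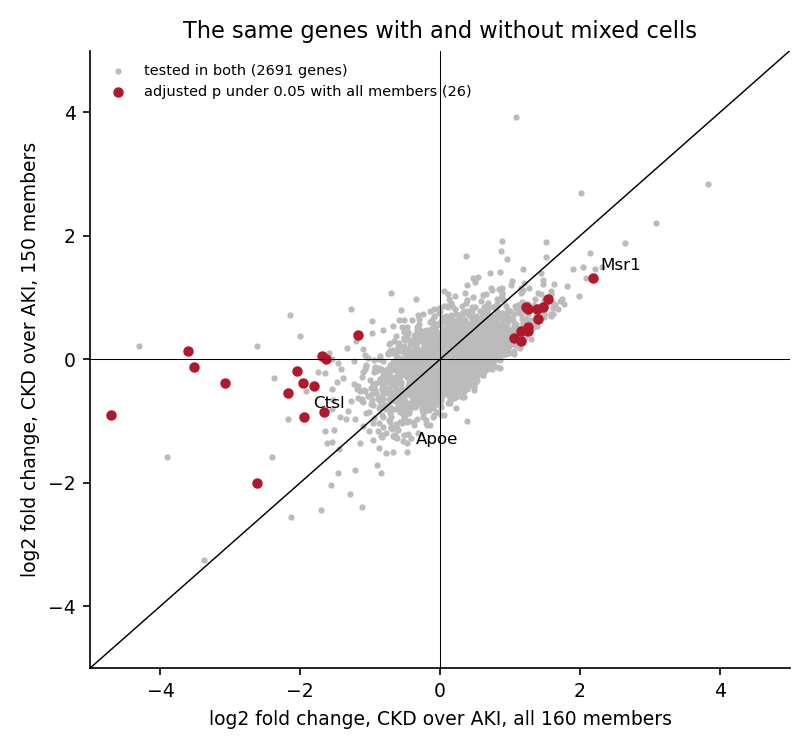
Each point is 1 of 2691 genes tested in both fits, with its log2 fold change (CKD over AKI) for all 160 members on the x axis and for the 150 members without mixed cells on the y axis; the line marks equal values. Of the 26 red genes called with all members, 22 kept their sign without mixed cells, and all 26 lay nearer to 0.

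The rises with all members included genes of myeloid cells, and each was smaller without the mixed cells. Among them were Ifi207, Slpi, S100a4, Cxcl2, Pilra, Capg, Itgam, Msr1, Lilrb4a, Cd14 and Malt1, with log2 fold changes from 1.06 to 2.18 and adjusted p from 0.0341 to 0.0494. With the mixed cells out, the log2 fold changes of these genes ran from 0.30 to 1.32 and the adjusted p from 0.877 to 0.974. Msr1, a scavenger receptor of macrophages, was at 0.254 and 0.290 in AKI and 1.03 and 1.27 in CKD (log2 fold change 2.18 ± 0.35 SE, adjusted p = 0.0341). Without the mixed cells it was at 0.502 and 0.469 against 1.11 and 1.34 (log2 fold change 1.32, edgeR adjusted p = 0.877), still without overlap. S100a4, a calcium-binding protein of motile cells, was at 13.1 and 12.8 against 25.3 and 24.6 with all members (log2 fold change 1.06 ± 0.19 SE, adjusted p = 0.0416). Without them it was at 23.9 and 18.2 against 27.9 and 26.3, a log2 fold change of 0.34 with an edgeR adjusted p of 0.972.

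Apoe, which encodes the lipid carrier apolipoprotein E (ENSMUSG00000002985, chromosome 7, 19430034 to 19434947), was the gene nearest to the threshold without the mixed cells. Its level was 32.0 per 10000 in the control, 55.1 and 60.2 in AKI and 19.4 and 22.1 in CKD. The groups did not overlap, and the log2 fold change was -1.50 ± 0.19 (SE, 2 libraries a group, edgeR adjusted p = 0.0704, DESeq2 past the threshold). In the median cell the level was 35.7 and 18.5 in AKI and 12.7 and 10.9 in CKD, with AKI above CKD. In AKI 2, 1 cell held 28.8% of the Apoe UMIs, and in the control 1 cell held 54.8%. Cd3 lymphocytes had 0.752 to 3.35. C1q macrophages had 103 in the control, 263 and 273 in AKI and 59.3 and 74.2 in CKD, so both classes had their highest level in AKI.

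Genes of classical monocytes were present throughout. With all members, 3 of 16 tested genes rose (Itgam, S100a4 and Cd14) and none fell, beside 0.363% of all genes called higher and 2.78% called lower. Without the mixed cells none passed, and the list's median log2 fold change was 0.10, beside 0.00 over all genes. Ly6c2 itself was at 3.53 per 10000 in the control, 5.78 and 2.81 in AKI and 2.75 and 1.48 in CKD. The groups nearly touched, the log2 fold change was -1.06 (edgeR adjusted p = 0.928), and Cd3 lymphocytes, some of which transcribe Ly6c2, stood at 1.17 to 3.28. Ccr2, the receptor for monocyte chemoattractants, was at 3.98, 3.18, 3.87, 2.53 and 4.98, with CKD on both sides of AKI. Cd14, a co-receptor for lipopolysaccharide, was at 2.50, 9.96, 6.09, 10.7 and 11.7. Its control level (exact 95% Poisson interval 1.46 to 4.01) was the lowest of the 5.

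Genes of non-classical monocytes were sparse. None of 14 tested genes was called with all members, and none of 13 without the mixed cells, where the median log2 fold change was -0.36 and 6 genes were lower in CKD without overlap, against 14.9% of all genes. Klf2, a transcription factor of quiescent leukocytes, was at 25.3 in the control, 8.79 and 13.7 in AKI and 4.42 and 6.89 in CKD (log2 fold change -1.01, edgeR adjusted p = 0.877). Nr4a1 was at 9.13, 7.37, 6.09, 4.16 and 7.90, and Cx3cr1, the fractalkine receptor, at 1.47, 1.09, 0.820, 0.595 and 0.862. Both overlapped between AKI and CKD. Treml4, Spn, Adgre4 and Ear2 stayed under 1 per 10000 in every library.

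Receptors and adhesion molecules of recruitment gave 1 call of 18 with all members (0.363% of all genes rose), Itgam, which encodes the CD11b chain of an integrin. It was at 0.804 and 1.16 in AKI and 2.62 and 2.18 in CKD (log2 fold change 1.39 ± 0.27 SE, adjusted p = 0.0494). In the unmixed members it was at 1.17 and 1.64 against 2.90 and 2.30, and the adjusted p was 0.928. The list had a median log2 fold change of 0.06. Csf2ra, a chain of the GM-CSF receptor, was nearly level at 2.21, 2.18, 2.34, 2.30 and 2.61.

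Cytokine and chemokine genes were abundant, and Il1b, Ccl2 and Ccl5 spread widely within a group. With all members 1 of 19 tested genes rose, beside 0.363% of all genes, the neutrophil-attracting chemokine gene Cxcl2 (12.7 and 16.9 in AKI, 34.3 and 27.1 in CKD, log2 fold change 1.16 ± 0.23 SE, adjusted p = 0.0494). Once these were left out Cxcl2 was at 43.9 in the control, 22 and 26.9 in AKI and 32.4 and 29.2 in CKD, and none of the 19 was called (median log2 fold change 0.18). Il1b, the gene of interleukin 1 beta, was at 14.7, 9.54, 24.4, 8.88 and 13.8, the highest and the next to lowest value both lying in AKI. In AKI 2, 1 cell held 30.3% of the Il1b UMIs. Ccl3, a chemokine that attracts monocytes and T cells, was at 7.95 and 6.09 in AKI and 3.34 and 4.19 in CKD (log2 fold change -0.91, adjusted p = 0.877). Ccl5 was at 0.147, 0.419, 2.17, 7.02 and 2.61, while Cd3 lymphocytes, which transcribe it, stood at 29.0 to 66.0.

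**Figure D4:**
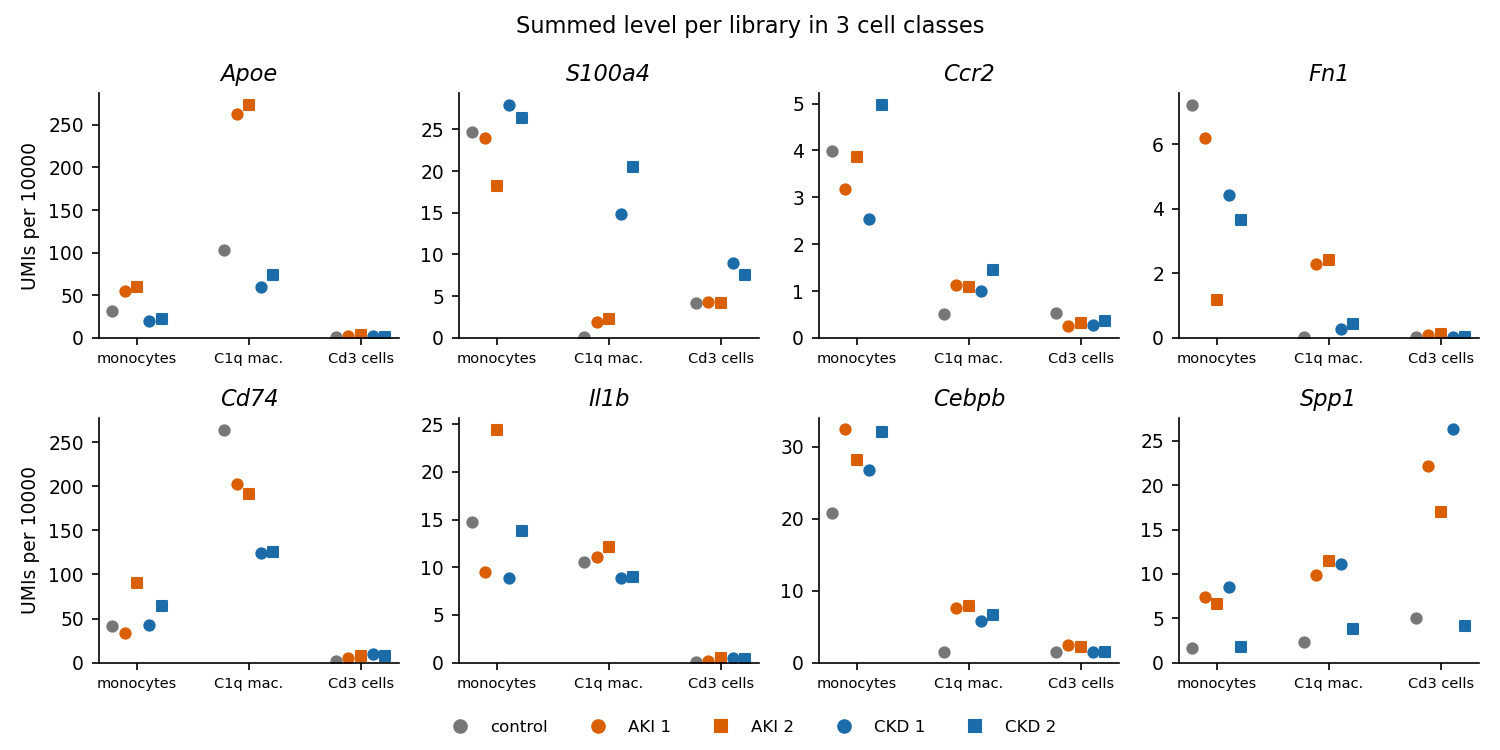
UMIs per 10000 for 8 genes in monocytes, C1q macrophages and Cd3 lymphocytes, 1 point per library (mixed cells left out of monocytes and macrophages), each panel on its own linear axis from 0. Apoe is highest in the AKI libraries in monocytes and macrophages, Cebpb is highest in monocytes in every library, and Spp1 is highest in the Cd3 lymphocytes.

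Feedback genes of NF-kB gave no call of 16 tested with all members or of 15 without the mixed cells. Nfkbia, the inhibitor that NF-kB itself induces, was at 27.7, 21.7, 27.3, 31.4 and 25.8. Pim1, a kinase gene, was at 17.8, 12.6, 13.1, 13.9 and 14.4. Interferon-stimulated genes also gave no call, of 24 tested with all members or of 18 without the mixed cells. In the second set 8 of 18 lay higher in CKD without overlap and none lower, against 19.4% and 14.9% of all genes, and the median log2 fold change was 0.50. Isg15, a ubiquitin-like protein induced by interferon, was at 0.883, 0.502, 1.52, 2.42 and 1.65 (log2 fold change 0.87, adjusted p = 0.928). Cd3 lymphocytes, which can also transcribe it, had more, from 3.94 to 8.82.

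Antigen presentation genes of class II, which show peptides to helper T cells, differed between the AKI libraries. None of 8 tested genes was called in either fit. Cd74, the invariant chain, was at 41.7 in the control, 33.7 and 89.9 in AKI and 42.8 and 64.0 in CKD. H2-Aa followed with 14.6, 9.46, 35.7, 12.9 and 20.3. AKI 2 was the highest and AKI 1 the lowest library for both. C1q macrophages had 124 to 264 for Cd74, well above every monocyte value. Class I genes gave no call of 16 or of 15, and B2m, their shared light chain, was at 13.4 in the control and 21.4 to 28.7 in the other libraries.

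Genes of macrophage maturation summed to 44.9, 72.0, 79.3, 37.0 and 40.5 per 10000, against 105 to 338 in C1q macrophages. None of 11 was called in either fit. Without the mixed cells, 3 of the 11 were lower in CKD without overlap and 1 was higher, against 14.9% and 19.4% of all genes. The median log2 fold change was then -0.10. Ms4a7, Mrc1 and Pf4 stayed under 1 per 10000. Among genes of lipid-associated macrophages, Ctsl, a lysosomal protease, fell with all members (8.51 and 7.54 in AKI, 2.12 and 1.76 in CKD, log2 fold change -1.94 ± 0.22 SE, adjusted p = 0.0156), the only call of 12 (2.78% of all genes fell). In the unmixed members it was at 3.35 and 2.64 against 1.67 and 1.51, with a log2 fold change of -0.93 and an adjusted p of 0.877. Trem2, a lipid receptor, was at 0.883, 0.753, 0.762, 0.892 and 1.32, with the highest value in CKD 2. Lpl, lipoprotein lipase, was at 0.147, 0.167, 0.0586, 0.706 and 2.51, 15 cells holding its 105 UMIs in CKD 2.

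Spp1, the gene of the matrix protein osteopontin, was below the level in Cd3 lymphocytes. With all members, 77.0% to 96.0% of its UMIs lay in the mixed cells. In the other members it was at 1.62, 7.37, 6.56, 8.51 and 1.77, below the 4.99, 22.2, 17.0, 26.3 and 4.15 of Cd3 lymphocytes in each library. Acp5, which encodes the osteoclast phosphatase TRAP5, was the 1 call of 4 osteoclast genes tested with all members, beside 0.363% of all genes called higher (0 and 0.0362 in AKI, 0.499 and 0.355 in CKD, log2 fold change 4.29 ± 0.85 SE, adjusted p = 0.0495). The call was lost with RLE factors (edgeR adjusted p = 0.0516), DESeq2 (0.307), the control kept in the fit (0.099), the replicate block (0.132) and without CKD 2 (0.402). It rested on 1 UMI in the unmixed AKI cells and on 13 and 14 in CKD, each over 11 cells. Cd3 lymphocytes had more of it, 0.690 and 0.877 in AKI and 3.45 and 2.01 in CKD. Mmp9 gave 0, 0, 5, 4 and 2 UMIs.

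Repair mediators gave 2 falls of 13 with all members, beside 2.78% of all genes, the growth factor genes Hbegf and Pdgfa. For Hbegf (8.17 and 3.95 in AKI, 0.436 and 0.289 in CKD, log2 fold change -3.96 ± 0.44 SE, adjusted p = 0.0150), 97.9% and 87.2% of the AKI UMIs lay in mixed cells. Without these, none of 9 tested genes was called. Fn1, fibronectin, was at 7.22, 6.19, 1.17, 4.42 and 3.66, with the CKD libraries between the AKI libraries and 55.4% of the AKI 1 UMIs in 1 cell. Arg1, the arginase of alternatively activated macrophages, was at 0, 0.167, 0, 0.0372 and 0.0479. Tgfb1 was at 3.09, 3.60, 2.40, 3.49 and 3.16.

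Among transcription factors of the lineage, 1 of 16 fell with all members (2.78% of all genes did), Cebpd (1.86 and 2.43 in AKI, 0.623 and 0.622 in CKD, log2 fold change -1.66 ± 0.28 SE, adjusted p = 0.0357). In the unmixed members it was at 0.921 and 1.41 against 0.669 and 0.670 and was not called (adjusted p = 0.928). Cebpb, a factor of myeloid differentiation, was at 20.8, 32.4, 28.2, 26.8 and 32.1, against 1.49 to 7.91 in C1q macrophages. Spi1, the gene of PU.1, was at 4.86, 6.28, 4.98, 5.72 and 5.48.

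Metabolic genes gave no call in either fit. The median log2 fold change without the mixed cells was 0.00 over 17 glycolysis and hypoxia genes, 0.01 over 26 nuclear genes of the respiratory chain and -0.15 over 9 iron and antioxidant genes. Fth1, the ferritin heavy chain, was at 72.2 in the control, 126 and 173 in AKI and 193 and 138 in CKD. Hmox1, which degrades haem, was at 8.96 in AKI 1 and 1.77 to 3.93 elsewhere. Cell cycle genes were sparse, Mki67 giving 0, 0, 6, 12 and 4 UMIs, and none of 5 or 4 tested was called.

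The control members stood apart in genes that respond to tissue dissociation. The list of 22 immediate-early and heat shock genes summed to 466 per 10000 in the control against 218 to 275 in the other libraries. Fos was at 77.2 (exact 95% Poisson interval 70.7 to 84.1) in the control, 14.6 and 20.4 in AKI and 12.4 and 18.7 in CKD. The control was also the highest library for this list in C1q macrophages (520 against 258 to 408) but not in Cd3 lymphocytes (248 against 172 to 263). It is a single library, so week, batch and handling cannot be told apart. Between CKD and AKI none of 21 tested genes was called in either fit, and the median log2 fold change without the mixed cells was -0.19.

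To ask whether monocytes and C1q macrophages changed alike, the change from AKI to CKD was compared between the classes within libraries, over all cells of both. The difference passed for 259 of 11564 genes (2.24%), 192 with the larger value in monocytes (1.66%) and 67 with the smaller (0.579%). It passed for 121 with mixed cells of both classes left out. With edgeR's newer quasi-likelihood fit, it passed for 0 of 11564 (1820 at an unadjusted p under 0.05, smallest adjusted p 0.0598). Without single libraries the count was 512 (AKI 1), 660 (AKI 2), 330 (CKD 1) and 396 (CKD 2).

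S100a4 was high in monocytes in both phases and in macrophages only in CKD. In macrophages it was at 1.76 and 2.28 per 10000 in AKI and 18.2 and 21.3 in CKD, and it rose there (log2 fold change 3.24, edgeR adjusted p = 0.0211). Monocytes were above these AKI values already, at 13.1 and 12.8, and reached 25.3 and 24.6. The difference of the changes was -1.97 ± 0.19 on the log2 scale (SE, edgeR adjusted p = 0.000565, newer fit 0.0598). Without the mixed cells, the log2 fold change of S100a4 in monocytes was 0.34 instead of 1.06, and the difference was -2.43. Fn1 went the other way, from 2.17 and 2.50 to 0.370 and 0.418 in macrophages, where it fell (log2 fold change -2.62, adjusted p = 0.0211). In monocytes it was at 3.64 and 0.761 and then 3.77 and 3.60 (difference 3.90 ± 0.54 SE, adjusted p = 0.00399, newer fit 0.111). Apoe fell in macrophages from 242 and 253 to 46.0 and 69.5 (log2 fold change -2.14, adjusted p = 0.0487). With all members, monocytes had 29.0 and 41.4 and then 24.2 and 22.7 (difference 1.95 ± 0.21 SE, adjusted p = 0.000732). This difference was 0.82 without the mixed cells.

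The other named differences with the larger value in monocytes were Acp5, Ccl7, Ccl5, Trf, Cd86, C5ar1, Basp1, Rsad2 and Adgre1, from 2.41 to 4.16 on the log2 scale. In edgeR's default fit, each had an adjusted p under 0.05 without the mixed cells too, and none in the newer fit. Among them, Ccl7, a chemokine for monocytes, was at 14.8 and 11.6 in AKI macrophages and 5.97 and 5.44 in CKD macrophages. In monocytes it was at 0.0846 and 0.689 and then 3.30 and 0.578, and 53.0% and 68.0% of the UMIs in unmixed CKD members came from 1 cell in each library. The named differences with the smaller value in monocytes were Ly6c2 and 9 genes, Krt18 and Sfn among them, that lost their call without the mixed cells. For Krt18 the difference went from -5.76 to 6.35 (adjusted p = 0.909), while for Akap12 it was -10.82 and then -9.17 (adjusted p = 0.141). Ly6c2 was nearly absent from macrophages (0.0108 and 0.00801 in AKI, 0.177 and 0.0591 in CKD). Its difference was -3.40 (adjusted p = 0.00148, newer fit 0.0792), with monocytes at 3.05 and 1.74 in AKI and 2.53 and 1.38 in CKD.

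**Figure D5:**
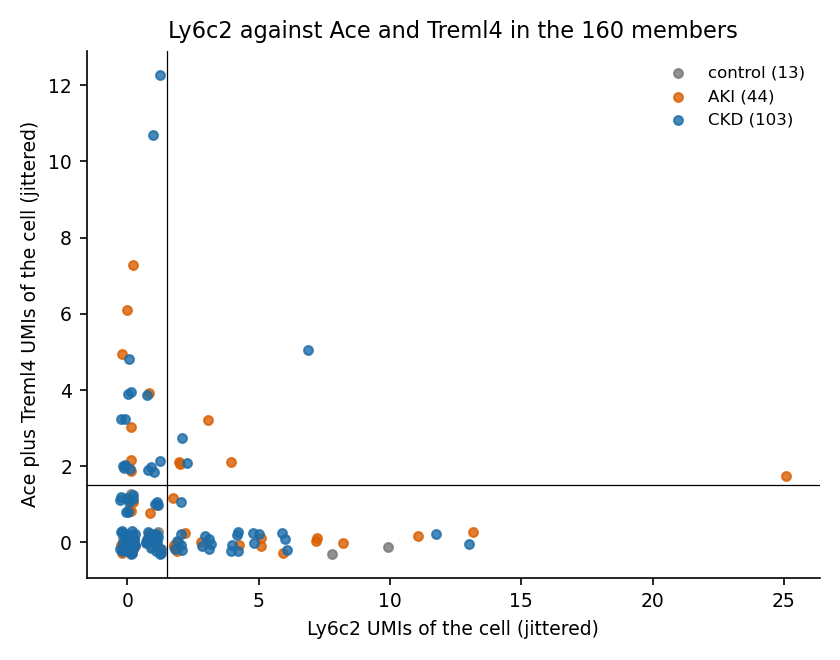
Each point is 1 of the 160 members, with its Ly6c2 UMIs on the x axis and its summed Ace and Treml4 UMIs on the y axis, jittered; the lines separate counts of 1 and 2. Of the members, 42 lie right of the line only, 23 above the line only, and 95 on neither of these sides.

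The members were sorted by Ly6c2, a gene of classical monocytes, against Ace and Treml4, genes of non-classical monocytes, and most fell on neither side. At least 2 Ly6c2 UMIs with at most 1 of Ace and Treml4 placed 42 members on the Ly6c2 side, and the opposite placed 23 on the Ace side. The other 95 were on neither, 45 of them with no UMI of these genes and 42 of them 1 UMI short of a side. Members that held a side with exactly 2 UMIs are not among those 1 UMI short, and 1 UMI fewer would have moved them off their side. The rest of the 95 had at least 2 UMIs of Ly6c2 and at least 2 of Ace and Treml4, so they met both minimums. Among them was the AKI 1 member with the most Ly6c2 UMIs of all (25, with 2 of Ace and Treml4). The Ly6c2 side held 23.1% of the members in the control (exact 95% interval 5.04 to 53.8), 36.8% (16.3 to 61.6) and 32.0% (14.9 to 53.5) in AKI and 26.0% (14.6 to 40.3) and 20.8% (10.8 to 34.1) in CKD. Both CKD values were below both AKI values, but all intervals overlapped, and after thinning to 2000 UMIs the shares were 8.33% and 11.1% in AKI and 14.3% and 0% in CKD. The Ace side held 0, 3, 4, 7 and 9 members.

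In this comparison and the levels that go with it, the mixed cells are included. In AKI 1 the Ace side had 3 cells, and the deepest of them was a mixed cell of 59034 UMIs. The others had 7491 and 3007 UMIs, so the AKI 1 levels of the Ace side rest mostly on the mixed cell. A few genes that set neither rule differed between the sides within libraries. The 4 AAI libraries had at least 3 cells on each side, and 5 of 961 genes tested (0.520%) passed edgeR's test with library as a block. Slpi, a protease inhibitor, and Fn1 were higher on the Ly6c2 side, and Gngt2, a G protein subunit, Cd74 and H2-Aa on the Ace side (0.312% of the genes tested were called in that direction). Gngt2 was at 1.19, 3.89, 2.73 and 2.68 on the Ly6c2 side and 3.16, 17.4, 11.5 and 11.6 on the Ace side of AKI 1, AKI 2, CKD 1 and CKD 2. The Ace side was higher in each library, with a log2 difference of -2.04 ± 0.27 (SE, adjusted p = 0.0288). Slpi was at 3.32, 3.09, 4.74 and 13.8 against 0.288, 1.21, 0.622 and 1.00 (log2 difference 2.99 ± 0.45 SE, adjusted p = 0.0393). Fn1 was at 6.89, 1.88, 4.86 and 6.48 against 0.719, 0, 0 and 1.29 (log2 difference 3.04 ± 0.51 SE, adjusted p = 0.0479).

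Most class II genes tested lay toward the Ace side. Cd74 was at 6.77, 47.7, 31.0 and 27.9 on the Ly6c2 side against 21.3, 92.5, 63.4 and 59.6 on the Ace side (log2 difference -1.25 ± 0.20 SE, adjusted p = 0.0393). H2-Aa had a log2 difference of -1.59 ± 0.27 (SE, adjusted p = 0.0479), and 6 class II genes tested had a median of -1.29. Among these 6, H2-DMa went the other way (0.41) and H2-DMb1 was at -0.33, and neither was called. All 12 classical genes tested were higher on the Ly6c2 side, as were 480 of all 961 genes tested. Their median was 0.78, with 1 call (0.208% of all genes were called in this direction). Of 5 non-classical genes tested, 2 were higher on the Ly6c2 side, 1 was called on the Ace side, and the median was -0.52. With mixed cells left out, AKI 1 had too few Ace-side cells, and only Gngt2 and Cd74 passed. Without CKD 1 or without CKD 2 none passed (45 and 57 genes at an unadjusted p under 0.05), and without AKI 1 2 genes passed.

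Pooled over the libraries and without the mixed cells, 41 Ly6c2-side and 22 Ace-side cells gave a fuller picture, with exact 95% Poisson intervals for counting error only. Itgal, an integrin chain of patrolling monocytes, was at 1.08 (0.754 to 1.51) against 4.66 (3.59 to 5.95). Adgre4, an adhesion receptor, was at 0.0928 (0.0191 to 0.271) against 1.82 (1.18 to 2.69), and Spn, the sialoglycoprotein CD43, at 0.0619 (0.00749 to 0.223) against 1.02 (0.557 to 1.71). Cd36, a fatty acid receptor, was at 0.124 (0.0337 to 0.317) against 1.89 (1.24 to 2.77). Plvap, an endothelial marker, was at 1.61 (1.2 to 2.11) on the Ly6c2 side and 0 (0 to 0.269) on the Ace side. Emcn, another endothelial marker, was at 0.742 (0.476 to 1.1) against 0 (0 to 0.269). These genes were chosen after their values were seen. The limits for mixed cells took in tubule markers and depth only. Among all unmixed members, endothelial and stromal markers summed to 0.0837 in AKI 1, 0.0479 in CKD 2 and 3.46 to 5.01 elsewhere. The part of endothelial RNA or doublets in the Plvap and Emcn values was not tested. Intervals overlapped for Ccr2, at 4.18 (3.5 to 4.94) and 2.98 (2.14 to 4.05), and for Il1b, at 9.47 (8.43 to 10.6) and 9.17 (7.64 to 10.9). Of the genes of the member rule, F13a1 was at 4.61 against 0.146 and Vcan at 1.58 against 0.218, while Chil3 was at 14.8 against 10.3 and Plac8 was higher on the Ace side. The rules partly set the differences in F13a1, Vcan and Chil3. A Ly6c2-side cell needed at least 1 UMI of Chil3, Vcan, F13a1 or Hp, while an Ace-side cell could enter on Ace alone.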

How the data were processed

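The authors deposited raw UMI counts per gene and barcode for 5 kidney libraries (10x 3′ kit, version 2). The labels name Cell Ranger 7.2.0, STAR and GRCm39, whereas AKI and CKD file headers name Cell Ranger 5.0.0 and the control gene list names mm10. Of 72896 barcodes, 60043 passed the study's limits (at most 30% mitochondrial UMIs, at least 200 genes); neither the study's ambient RNA correction nor its doublet calls were applied.

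Members, gene lists and tests were chosen with earlier results of these data known. UMIs were summed per library and tested with edgeR 4.0.16 in R 4.3.3 (TMM, filterByExpr, glmQLFit, glmQLFTest, Benjamini-Hochberg over all genes tested), with DESeq2 1.42.0 and other alternatives. Genes of the rule were not tested. Cells are not replicates, so no test treated them so. Sides were planned for libraries with 10 cells on each side; none had them, so 3 were required. C1q macrophages had at least 8 C1q UMIs, a UMI of Lyz2 or Csf1r, and the members' other exclusions.

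Named genes were the 12 largest rises and falls among called genes of at least 1 UMI per 10000 in either group's mean, without overlap and in no list of other cells; up to 4 called genes of each of the lists; and 14 fixed genes. For the other comparisons they were the 10 largest differences each way. Genes named beyond these, such as Apoe, Klf2, Msr1 without mixed cells and those pooled by side, were chosen after their values were seen. Some genes that the rule names are not reported here. The AKI and CKD replicate numbers do not pair the libraries in the labels. On simulated counts, 12.1% of 2-fold and 77.6% of 4-fold changes were recovered between CKD and AKI over 3522 genes, and 36.5% and 94.3% over 2443 genes without mixed cells. For the class difference these were 0% and 32.6% (10791 genes), and for the sides 35.7% and 97.5% (861 genes). Intervals cover counting error only.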

Additional observations from a re-analysis of the deposited data

Results flagged for a closer look

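The change from AKI to CKD differed between monocytes and C1q macrophages for 259 of 11564 genes in edgeR's test of the difference itself, with library as a block. S100a4 (difference -1.97 on the log2 scale, smaller in monocytes), Fn1 (3.90) and Apoe (1.95) were among them. The 5 mixed AKI members and the depth of the summed members (236311 and 275916 UMIs in AKI, 320771 and 450076 in CKD) moved with these differences, and their part was not tested. Without mixed cells of either class, 121 genes passed, and with edgeR's newer quasi-likelihood fit 0 passed with or without them. The median difference over all genes was -0.130, and 0.129 without the mixed cells. Adjusted p-values without the mixed cells reached 2.03e-27 (Fn1) in the default fit, against a smallest value of 0.339 in the newer fit.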

How the results depend on the processing

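The 121 genes that differed between CKD and AKI became 112 with RLE factors, 161 at a mitochondrial limit of 15% and 130 with edgeR's newer fit. They became 75 with DESeq2 (which moved the median log2 fold change of all genes from 0.001 to -0.207), 51 with the control kept in the fit, 734 with no filter on low counts, 3 at the study's thresholds, 1 (Apoe) with cells thinned to 2000 UMIs and 0 for members without a UMI of an excluded gene (57 at an unadjusted p under 0.05). Leaving out a library gave 88 to 526. The replicate block gave 57; AKI and CKD share only the numbers (correlation of same-numbered deviations -0.00793). Alternatives chosen after seeing the data left out the mixed cells, which gave 0, also with RLE factors, with the newer fit and with the control in the fit. They gave 1 with DESeq2 (Apoe), 30 with no filter, 2 with the replicate block (Lpl higher, Apoe lower) and 4 to 31 with a library left out as well (25 without AKI 1, 31 without AKI 2, 8 without CKD 1, 4 without CKD 2). Leaving out the deepest member of each library gave 0 (265 at an unadjusted p under 0.05). Of 29 named genes called with all members, 7 lost the call with RLE factors, 11 with DESeq2, 11 with the control in the fit, 15 with the replicate block and 12 without CKD 2. Cxcl2 turned to -0.20 with thinned cells and S100a4 to -0.000626 without excluded-gene UMIs.

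For the class difference, 259 became 250 with RLE factors, 701 with no filter, 330 to 660 with a library left out, 121 without mixed cells and 0 with the newer fit, also without mixed cells. The 5 genes of the sides became 55 with no filter, 3 with DESeq2, 6 with the newer fit, 2 without mixed cells and 0 to 5 with a library left out. The share difference of 0.208 percentage points was 0.818 among barcodes without a Cd3 UMI, 8.09 per 100 C1q macrophages and 0.0589 to 0.358 with a library left out. Mitochondrial limit, thinning and mixed cells gave 0.147 to 0.218. Removal of cells with 2 UMIs of other cells' lists gave 0.250, but its shares were 0% and 0.34% in AKI and 0% and 0.84% in CKD. CKD 1 then lay below AKI 2, and the 0.250 rested on CKD 2. The difference in the Ly6c2-side share, -11.0 percentage points, was -2.58 after thinning and -13.7 to -8.42 with a library left out. Not run were gene tests after that removal, which left members in 2 AKI or CKD libraries only, its side share, sides of 10 cells, and sides without the control, which had no Ace-side cell. The causes of these shifts were not tested. With 13 to 53 members a library, levels near 1 UMI per 10000 rest on few cells.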
